A study of Mus musculus with 47 samples.

Results

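Heat shock proteins of the cytosol and the mitochondria were described by 10 mouse genes: Hspd1, Hspe1, Hspa9, Hspa8, Hspa1b, Hsph1, Dnajb1, Hsp90aa1, Hsp90ab1 and Hspb1. Every probe set annotated to them in any of the 6 array tables was taken, which gave 16 probe sets for 9 of the genes, out of 16366 annotated genes and 49438 probe sets in the series. Hsp90ab1 had no annotated probe set. Of the 16 probe sets, 14 lay on the 3 tables used for the tests, and 12 of these, covering all 9 genes, rose above a floor set at the 40th percentile of intensity on at least 2 arrays and were tested.

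The RNA was total RNA from mouse lung, measured on Affymetrix murine U74 arrays, on which a probe set is a group of short oligonucleotides read together as 1 intensity. Sensitization fell on days 0 and 3, instillation into the trachea on days 10 and 17, and the lungs were collected after a further 24 h or 72 h. Ragweed mice received ragweed pollen protein at both steps, with alum named at sensitization, and PBS mice received phosphate-buffered saline, for which no alum is named. Each of the 4 groups (PBS 24 h, ragweed 24 h, PBS 72 h and ragweed 72 h) held 2 samples, 1a and 1b. Strain, sex and age are not given in the sources used here, nor is it said whether 1a and 1b came from different mice. The p-values below therefore rest on how far 1a and 1b differ, for each probe set and, by a shared estimate, over the tested probe sets of its array. That spread may be technical.

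Heat shock proteins are chaperones: they hold or refold unfolded proteins, and many of their genes are switched on by heat shock factor 1, which binds repeats of a short element in their promoters when unfolded protein builds up. HSP60, encoded by Hspd1, and its lid HSP10, encoded by Hspe1, form the folding chamber of the mitochondrial matrix, fed by mitochondrial HSP70 (Hspa9). In the cytosol HSP70 (Hspa8 constitutive, Hspa1b inducible) works with its J-protein partner DNAJB1 and the nucleotide exchange factor HSP110 (Hsph1), and passes clients on to HSP90, while HSP27 (Hspb1) holds unfolded proteins without using ATP.

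Promoter sequence is shown for 3 reasons. Hspd1 and Hspe1 are read in opposite directions from 1 shared stretch, Hspa1b is the classic inducible gene, and Hsph1 carries matches on both sides of its start. The sequences are from RefSeq (build GRCm38.p6), read 5′ to 3′ on the strand given, with matches to the heat shock element in capitals. The 215 bases between the starts of Hspd1 (minus strand, to the left) and Hspe1 (plus strand, to the right) lie at chr1:55087933-55088147 and are written on the plus strand. The Hspa1b stretch, the 250 bases before its start, lies at chr17:34959239-34959488 on the minus strand. The Hsph1 stretch of 30 bases lies at chr5:149636351-149636380 on the minus strand.
Hspd1 and Hspe1: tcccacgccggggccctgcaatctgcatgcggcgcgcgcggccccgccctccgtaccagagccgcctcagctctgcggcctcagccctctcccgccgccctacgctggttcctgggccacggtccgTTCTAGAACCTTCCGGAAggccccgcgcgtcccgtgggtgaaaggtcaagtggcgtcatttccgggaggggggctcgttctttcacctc
Hspa1b: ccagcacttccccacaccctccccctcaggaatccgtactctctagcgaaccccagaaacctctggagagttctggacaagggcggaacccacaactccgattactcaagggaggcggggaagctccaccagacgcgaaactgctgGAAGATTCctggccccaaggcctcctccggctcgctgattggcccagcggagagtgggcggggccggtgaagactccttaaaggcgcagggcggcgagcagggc
Hsph1: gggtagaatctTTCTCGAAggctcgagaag

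The element was searched on both strands in windows from 250 bases before to 50 bases after each annotated start, as 2 units (GAANNTTC or TTCNNGAA) and as 3 units (GAANNTTCNNGAA or TTCNNGAANNTTC), every 3-unit match also holding 2-unit matches. Windows were at hand for 6 of the genes (Hspd1, Hspe1, Hspa1b, Hsph1, Dnajb1 and Hspb1). Some genes have several annotated starts, which gave 9 windows. A 2-unit match stood in 6 of the 9 windows (5 of the 6 genes, all but Dnajb1), against 15.1% of all 32851 windows of that length. A 3-unit match stood in 4 of the 9 windows (Hspd1, Hspe1 and Hsph1), against 0.603% of all windows, and some of these windows overlap. In the shared Hspd1 and Hspe1 stretch the run of units began 89 bases before the Hspe1 start and 144 bases before the Hspd1 start on its own strand, so both genes had the same letters in their windows. A second annotated Hspd1 start, whose window lies beyond the shared stretch, had no match. The 2-unit match of Hspa1b began 104 bases before its start, and the printed match of Hsph1 began 33 bases before the first and 54 before the second of its 2 annotated starts. Its 3-unit match, which is not printed, began at base 37 or 16 of the transcript, counted from those starts. These are matches of letters, with no binding measured here.

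The tests used 3 tables: the first-version A array, which has all 4 groups, and the version 2 B and C arrays, with 25249 probe sets tested in all. On the first-version A array the PBS arrays had been deposited unscaled, with trimmed means from 224.7 to 376.5, and the ragweed arrays scaled to 800, so treatment and deposited scale cannot be told apart there; all were brought to 800 and quantile normalized before use. Quantile normalization gives every array the same set of values, so equal intensities in 2 samples mean equal ranks. Of 9 lung epithelium markers 8 were tested, and 1 of them lay at the floor in 1 group, ragweed at 72 h. The number of arrays limits the precision, and in whole lung fewer cells of a type and less RNA per cell cannot be told apart.

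Hspd1, the HSP60 subunit, stood highest in the PBS lungs of 24 h. The probe set 93277_at read 7903 and 8682 in PBS 24 h, 3045 and 3697 in ragweed 24 h, 4783 and 3355 in PBS 72 h, and 3650 and 4059 in ragweed 72 h. Both PBS samples of 24 h thus lay far above the other 6, whose ranges overlapped across the remaining 3 groups. At 24 h ragweed was lower than PBS by -1.30 ± 0.175 on the log2 scale (SE, n = 2 per group), which is 0.405 times the PBS level, with an adjusted p of 0.0304 in the limma fit.

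Hspd1 was the 1 member probe set of 12 that passed at an adjusted p under 0.05 in ragweed against PBS at 24 h, where 58 of all tested probe sets, 0.23%, passed. In the F-test of any difference among the 4 groups Hspd1 had an adjusted p of 0.0374 and was again 1 of 12, with 0.855% of all probe sets passing. Ragweed at 72 h also differed from the PBS samples of 24 h, by -1.11 with an adjusted p of 0.0306, a comparison in which 0.939% passed. PBS at 72 h differed from PBS at 24 h by -1.05 ± 0.175, with an adjusted p of 0.0733. Against its own PBS group, ragweed at 72 h differed by -0.06 ± 0.175, with a 95% interval from -0.46 to 0.34 and an adjusted p of 0.968. These comparisons share samples, and the difference between the effects at the 2 times, 1.25 ± 0.248, had an adjusted p of 0.273.

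The Hspd1 call at 24 h was lost with another choice of control, without most single arrays and under several settings. With PBS of 72 h as the control the difference was -0.26 with an adjusted p of 0.64, and with PBS of both times it was -0.78 with an adjusted p of 0.553. The adjusted p rose to 0.159 without PBS 24 h 1a, 0.256 without PBS 24 h 1b, 0.118 without ragweed 24 h 1a, 0.106 without ragweed 24 h 1b, 0.0998 without ragweed 72 h 1a and 0.099 without ragweed 72 h 1b, while the difference stayed between -1.44 and -1.16. Without either PBS sample of 72 h the call held, with adjusted p-values of 0.0217 and 0.0207. It was also lost with the replicate block (adjusted p = 0.0573), with scaling only (0.0527), with no filter (0.18), without a trend (0.128) and with a fit of the 2 groups alone (0.464).

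Beside this result, most summed marker levels also separated PBS from ragweed at 24 h. This is a description of 2 samples per group and was not set against the share over all genes. Lung epithelium markers summed to between 184071 and 184914 in PBS and between 227408 and 236134 in ragweed. Heart and skeletal muscle markers (12 of 16 tested) summed to between 17203 and 18166 in PBS against between 22361 and 25098, and squamous epithelium markers (7 of 9 tested) to between 15653 and 17707 against between 17751 and 20028. B and plasma cell markers (5 of 7 tested, 2 of them at the floor in PBS at 24 h) summed to between 8170 and 8818 against between 20690 and 20772. The sums of these lists were thus higher in both ragweed samples, but a sum follows its brightest genes. Below 0 at 24 h were 3 of 8 lung epithelium genes, 5 of 12 muscle genes, 3 of 7 squamous genes and 2 of 5 B and plasma cell genes. The medians were 0.26, 0.25, 0.08 and 0.65 in that order.

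Sums that were lower in both ragweed samples of 24 h were those of immediate early genes, red cells and macrophages. Immediate early genes (10 of 11 tested), which respond to handling, summed to between 22813 and 24295 in PBS and between 19047 and 19230 in ragweed, and red cell markers (2 of 3 tested) to between 75315 and 77825 against between 41096 and 68999. Of the 10 immediate early genes 6 were below 0 and 4 above, with a median of -0.06 and no call. Macrophage and monocyte markers (7 of 9 tested) summed to between 56941 and 64419 against between 43625 and 44450. Most macrophage genes went the other way from that sum: 5 of the 7 were above 0, with a median of 0.34, C1qa was called higher (0.86 ± 0.114, adjusted p = 0.0296 in the limma fit), and Lyz2 was at -0.69 ± 0.159. Fat markers overlapped. The part of these markers in the Hspd1 difference was not tested.

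**Figure D1:**
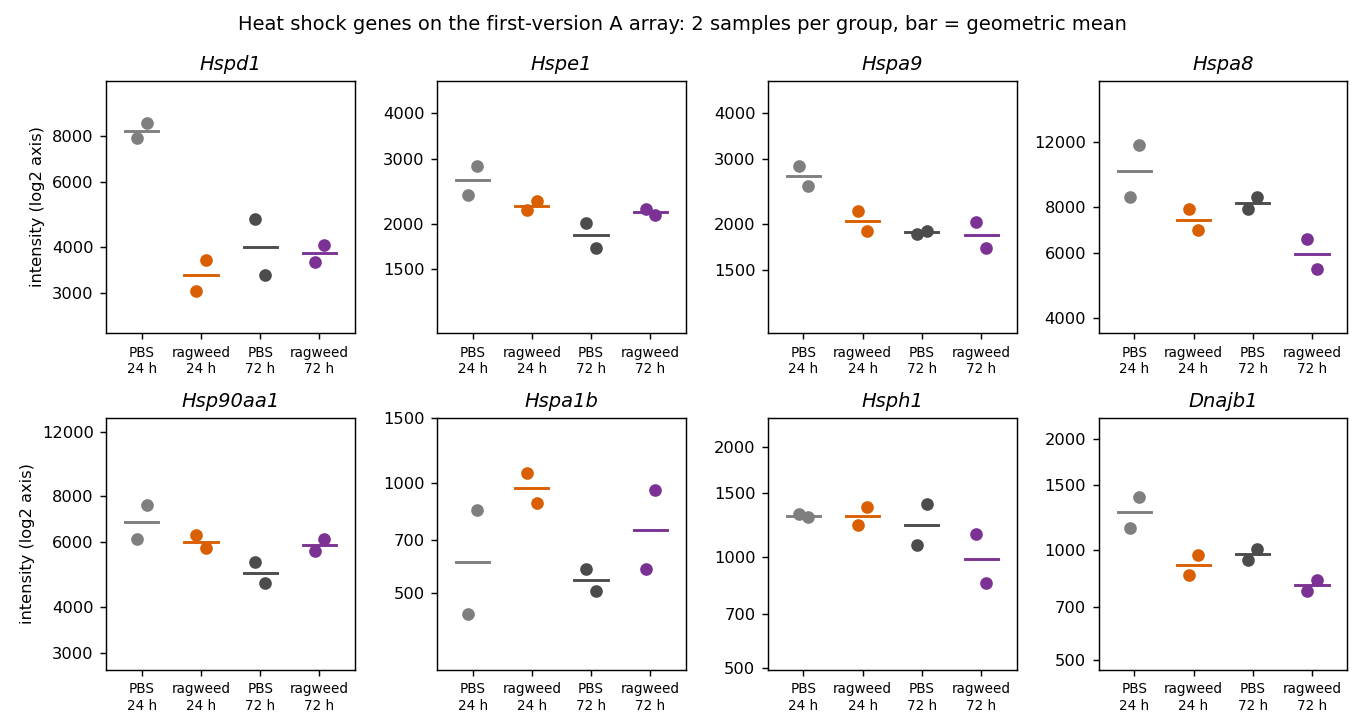
Intensity on a log2 axis of the 8 heat shock genes tested on the first-version A array, with 1 point per sample (n = 2 per group) and a bar at the geometric mean of each group. Both PBS samples of 24 h are above all others for Hspd1, Hspe1, Hspa9 and Dnajb1, while for Hspa1b and Hsph1 no group stands apart from all others. The ragweed samples of Hspa1b lie above the PBS samples of the same time, at 72 h by 584 against 583.

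Hspe1, the HSP10 lid that shares the Hspd1 promoter stretch printed above, varied less. Its probe set 92829_at read 2392 and 2865 in PBS 24 h, 2177 and 2302 in ragweed 24 h, 2008 and 1716 in PBS 72 h, and 2193 and 2106 in ragweed 72 h. The order was PBS at 24 h highest and PBS at 72 h lowest, with neither overlapping any other group, and the ragweed groups overlapped between them. Ragweed minus PBS was -0.23 ± 0.146 at 24 h (adjusted p = 0.746) and 0.21 ± 0.146 at 72 h (adjusted p = 0.717), and PBS at 72 h minus PBS at 24 h was -0.50 ± 0.146 (adjusted p = 0.364). Over the 8 samples the log2 values of Hspe1 and Hspd1 correlated with r = 0.713, and over the 6 samples of the version 2 A array with r = 0.891, a description over arrays that also share their scaling.

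Hspa9, the mitochondrial HSP70 that pulls proteins through the inner membrane, had 3 tested probe sets. The A probe set 97914_at read 2873 and 2541 in PBS 24 h, 2171 and 1910 in ragweed 24 h, 1876 and 1918 in PBS 72 h, and 2018 and 1720 in ragweed 72 h. PBS at 24 h was again above all other samples, and the other 3 groups overlapped. The differences were -0.41 ± 0.146 for ragweed minus PBS at 24 h (adjusted p = 0.463), -0.03 ± 0.146 at 72 h (adjusted p = 1) and -0.51 ± 0.146 for PBS at 72 h minus PBS at 24 h (adjusted p = 0.351).

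The C array held the other 2 Hspa9 probe sets. Probe set 170001_at read 559 and 611 in PBS 24 h, 696 and 598 in ragweed 24 h, 736 and 429 in PBS 72 h, and 2860 and 753 in ragweed 72 h, so that 1 ragweed sample, 1a at 72 h, stood apart from the other 7. Its ragweed minus PBS difference at 72 h, 1.38 ± 0.655, had an adjusted p of 0.564. Probe set 171404_r_at lay at the floor in 6 samples and read 287 and 436 in ragweed 72 h. It entered the test only through those 2 samples, so its direction was set by the filter and no test of it is given.

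Hspa8, the constitutive cytosolic HSP70 that also uncoats clathrin vesicles, was lowest in ragweed at 72 h. Probe set 96564_at read 8508 and 11797 in PBS 24 h, 7903 and 6899 in ragweed 24 h, 7903 and 8508 in PBS 72 h, and 6550 and 5406 in ragweed 72 h. Both ragweed samples were below both PBS samples of the same time, and ragweed at 72 h lay below the other 6 samples. Ragweed minus PBS was -0.44 ± 0.165 at 24 h and -0.46 ± 0.165 at 72 h, with adjusted p-values of 0.492 and 0.403, and the difference between these effects was -0.02 ± 0.234.

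Hspa1b, the inducible HSP70 whose promoter stretch is printed above, was the one A-array member whose differences from PBS were above 0 at both times without passing the test. Probe set 100946_at read 439 and 844 in PBS 24 h, 1060 and 879 in ragweed 24 h, 583 and 509 in PBS 72 h, and 584 and 952 in ragweed 72 h. The ragweed samples lay above the PBS samples at each time, by a margin of 1 intensity unit at 72 h (584 against 583). Before quantile normalization that order was reversed (587.8 in ragweed 1a against 591.3 in PBS 1a), so at 72 h the groups overlapped on the scaled values. The PBS samples of 24 h spread from 439 to 844. The differences were 0.67 ± 0.381 at 24 h (adjusted p = 0.715, 95% interval from -0.21 to 1.54) and 0.45 ± 0.381 at 72 h (adjusted p = 0.77). Hspa1a, a near-identical neighbour whose mRNA the probes may also read, gave 0.22 ± 0.231 and 0.28 ± 0.231 on its own probe set 93875_at, with no call at either time.

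Among the partners of HSP70, Hsph1 (HSP110, which releases ADP from HSP70) did not separate any group from the rest. Probe set 98111_at read 1309 and 1288 in PBS 24 h, 1226 and 1374 in ragweed 24 h, 1081 and 1396 in PBS 72 h, and 1160 and 851 in ragweed 72 h, with all 4 groups overlapping at least 1 other. Its ragweed minus PBS difference was 0.00 ± 0.229 at 24 h, with an interval from -0.53 to 0.52, and -0.31 ± 0.229 at 72 h (adjusted p = 0.741).

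Dnajb1, the J-protein that delivers clients to HSP70, read 1148 and 1391 in PBS 24 h, 854 and 969 in ragweed 24 h, 939 and 1005 in PBS 72 h, and 774 and 828 in ragweed 72 h on probe set 96254_at. PBS at 24 h was above and ragweed at 72 h below all other samples, and the remaining groups overlapped. Ragweed minus PBS was -0.47 ± 0.223 at 24 h (adjusted p = 0.616) and -0.28 ± 0.223 at 72 h (adjusted p = 0.756). Its C-array probe set 165414_at read 917 and 1256, 768 and 1562, 507 and 782, and 309 and 1289 in the same order of groups. Replicates were far apart in both ragweed groups, and ragweed minus PBS was 0.03 ± 0.701 at 24 h and 0.00 ± 0.701 at 72 h. The PBS groups did not overlap, and PBS at 72 h minus PBS at 24 h was -0.77 ± 0.701 (adjusted p = 0.843).

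Hsp90aa1, the inducible cytosolic HSP90 that matures kinases and steroid receptors, read 6109 and 7596 in PBS 24 h, 6265 and 5806 in ragweed 24 h, 5293 and 4658 in PBS 72 h, and 5670 and 6141 in ragweed 72 h on probe set 95282_at. PBS at 72 h was below all other samples, and the other 3 groups overlapped. The difference of PBS at 72 h from PBS at 24 h was -0.46 ± 0.127 (adjusted p = 0.331), and ragweed minus PBS was -0.18 ± 0.127 at 24 h (adjusted p = 0.768) and 0.25 ± 0.127 at 72 h (adjusted p = 0.611). A second probe set, 105094_at, was at the floor on all 8 arrays of both B versions and was not tested, and another, 161869_i_at, was at the floor on all 6 arrays of version 2 A.

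Hspb1, which encodes the small heat shock protein HSP27, lay at the floor on all arrays of both A versions with probe set 92853_at, so no level was measured there. The C-array probe set 171538_f_at read 702 and 456 in PBS 24 h and 841 and 1561 in ragweed 24 h. At 72 h it was at the floor of 246 in both PBS samples and in ragweed 1b, and read 800 in ragweed 1a. Ragweed lay above PBS at 24 h by 1.02 ± 0.694 (adjusted p = 0.757), and at 72 h the single reading of ragweed 1a carried the difference of 0.85 ± 0.694 (adjusted p = 0.759).

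**Figure D2:**
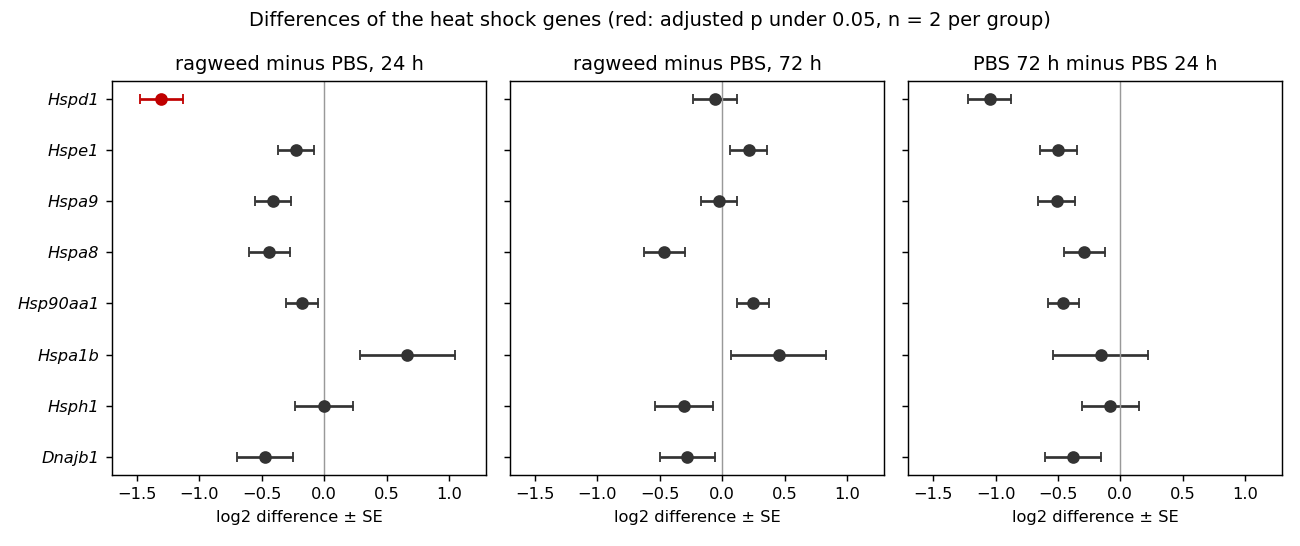
Log2 differences with standard errors of the 8 heat shock genes on the first-version A array, for ragweed minus PBS at 24 h and at 72 h and for PBS at 72 h minus PBS at 24 h (n = 2 per group). The red point, Hspd1 at 24 h with -1.30, is the one with an adjusted p under 0.05, and all 8 points for the PBS groups lie below 0.

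Across the members, the comparison of the PBS groups was the one in which all differences had the same sign. With 1 probe set per gene, PBS at 72 h was lower than PBS at 24 h for 9 of 9 genes, with a median of -0.46 on the log2 scale, against 50.7% of all 12842 genes and a median of -0.00. Of the 9, Hspb1 (-1.205 ± 0.694) could not be above 0, because both PBS samples of 72 h lay at the floor. Hsph1 (-0.08 ± 0.229) and Hspa1b (-0.16 ± 0.381) differed by less than their standard errors. No member passed the limma test in this comparison, in which 0.277% of probe sets did, and 4 of the 12 probe sets (Hspd1, Hspe1, Hspa9 and Hsp90aa1) were lower at an unadjusted p under 0.05, against 4.12% of all probe sets lower at that level, and none higher, against 4.23%. On the A array both PBS samples of 24 h lay above all 6 others for 4 of 8 genes, against 6.91% of its 6899 tested probe sets. Both PBS samples of 72 h lay below all others for 2 (Hspe1 and Hsp90aa1), against 4.28%, and both ragweed samples of 72 h for 2 (Hspa8 and Dnajb1), against 6.35%. None of the 8 had PBS at 24 h below all others (4.48% of all), ragweed at 24 h above (4.7%) or below (4%), PBS at 72 h above (5.71%) or ragweed at 72 h above (7%).

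Ragweed minus PBS at 24 h was below 0 for 7 of 9 genes, with a median of -0.23, against 50.1% of all genes and a median of -0.00. Of the 7, Hsph1 was at -0.001 ± 0.229. At 24 h 3 of the 12 probe sets (Hspd1, Hspa9 97914_at and Hspa8) were lower at an unadjusted p under 0.05, against 4.29%, and none higher, against 4.42%. Ragweed minus PBS at 72 h was below 0 for 5 of 9, with a median of -0.03, against 49.9% of all genes and a median of 0. No member passed at 72 h, where 0.523% of all probe sets did, and at an unadjusted p under 0.05 (9.62% of all) Hspa8 was lower, leaving aside Hspa9 171404_r_at, which passed the filter only through ragweed at 72 h. None of the 12 passed in the difference between the effects either, with 0.0396% passing overall. At an unadjusted p under 0.05 (7.36% of all) were Hspd1 and Hsp90aa1, both above 0. Between the ragweed groups 0.305% of all probe sets and no member passed, and at an unadjusted p under 0.05 (10.6% of all) there was none apart from that probe set. In this comparison 8 of 9 genes were lower at 72 h, with a median of -0.18, against 51.4% of all genes and a median of -0.01.

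The version 2 A array gave a second reading of 6 of the samples (no ragweed 24 h arrays were analysed on it), which is not an added replicate. Across the 6899 tested probe sets the same sample correlated between versions with r from 0.882 to 0.928. Hspd1 93277_at read 7331 and 8818 in PBS 24 h, 6326 and 6882 in PBS 72 h, and 4693 and 4113 in ragweed 72 h. PBS at 24 h was again highest, but PBS at 72 h lay between it and ragweed instead of beside ragweed. The largest change between versions was in PBS 72 h 1b, at 3355 on the first version and 6882 on version 2, a log2 difference of 1.04.

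On version 2 A the Hspd1 difference between ragweed and PBS at 72 h was -0.59 ± 0.136 (adjusted p = 0.22), against -0.06 on the first version, and PBS at 72 h minus PBS at 24 h was -0.28 ± 0.136 (adjusted p = 0.674), against -1.05. A second Hspd1 probe set found on this array alone, 161140_r_at, read 429 and 340, 401 and 263, and 463 and 438 in the same groups, close to the floor of 237. It did not repeat the order of 93277_at: ragweed at 72 h was its highest group.

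Hspe1 kept its order on version 2 A for the PBS groups, with 3671 and 3603 in PBS 24 h and 2435 and 3023 in PBS 72 h, but ragweed at 72 h read 2129 and 2260 and was lowest. Its ragweed minus PBS difference at 72 h therefore turned from 0.21 to -0.31 ± 0.133 (adjusted p = 0.51). Hsp90aa1 turned in the same way, from 0.25 to -0.28 ± 0.111 (adjusted p = 0.459), with readings of 8369 and 8590, 7264 and 6392, and 5586 and 5623.

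Hsph1, flat on the first version, read 2341 and 2555 in PBS 24 h, 1473 and 1072 in PBS 72 h, and 1084 and 1194 in ragweed 72 h on version 2. PBS at 24 h was above the other 4 samples there, and the PBS difference was -0.96 ± 0.18 (adjusted p = 0.207), against -0.08 on the first version. Dnajb1 went the other way: it read 617 and 686 in PBS 24 h, below 830 and 874 in PBS 72 h and 1017 and 775 in ragweed 72 h, so that the PBS difference was 0.39 ± 0.21 (adjusted p = 0.725) against -0.38.

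Hspa9 97914_at was the member read most alike, with 2624 and 2664, 1645 and 2096, and 1787 and 1639, and a PBS difference of -0.51 on both versions. Hspa8 read 6028 and 6215, 6200 and 4786, and 4810 and 5018, with a ragweed minus PBS difference at 72 h of -0.15 ± 0.141 (adjusted p = 0.784). Hspa1b read 810 and 851, 997 and 599, and 1130 and 1111. Both ragweed samples of 72 h were above the other 4, and the difference of 0.54 ± 0.257 (adjusted p = 0.553) was on the same side of 0 as on the first version.

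The version 2 A values were fitted together with the first-version B and C arrays, 26990 probe sets in all, and the shares passing are over these. No member probe set of version 2 A passed in ragweed against PBS at 72 h, where 0.226% of those probe sets did, or between the PBS groups, where 0.148% did. At an unadjusted p under 0.05 Hspd1 93277_at and Hsp90aa1 were lower in the first comparison, against 10.1% of all in either direction, and Hspe1, Hsp90aa1, Hspa9 and Hsph1 in the second, against 8.08%. Both PBS samples of 24 h lay above the other 4 for 5 of 9 member probe sets (Hspd1, Hspe1, Hspa9, Hsp90aa1 and Hsph1), against 13.8% of 8060 tested probe sets, and below them for Dnajb1, against 13.8%. Ragweed at 72 h lay below the other 4 for 3 (Hspd1 93277_at, Hspe1 and Hsp90aa1), against 16.3%, and above them for 2 (Hspd1 161140_r_at and Hspa1b), against 17%. PBS at 72 h lay above the other 4 for none (7.06% of all) and below them for none (4.69%). The ratio of the 3′ to the 5′ actin control was 0.189 and 0.198 in the PBS arrays of 72 h on version 2 A and between 0.437 and 0.801 on its other arrays, while on the first version it lay between 0.798 and 0.968 in all 8. Its part in the differences between versions was not tested.

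**Figure D3:**
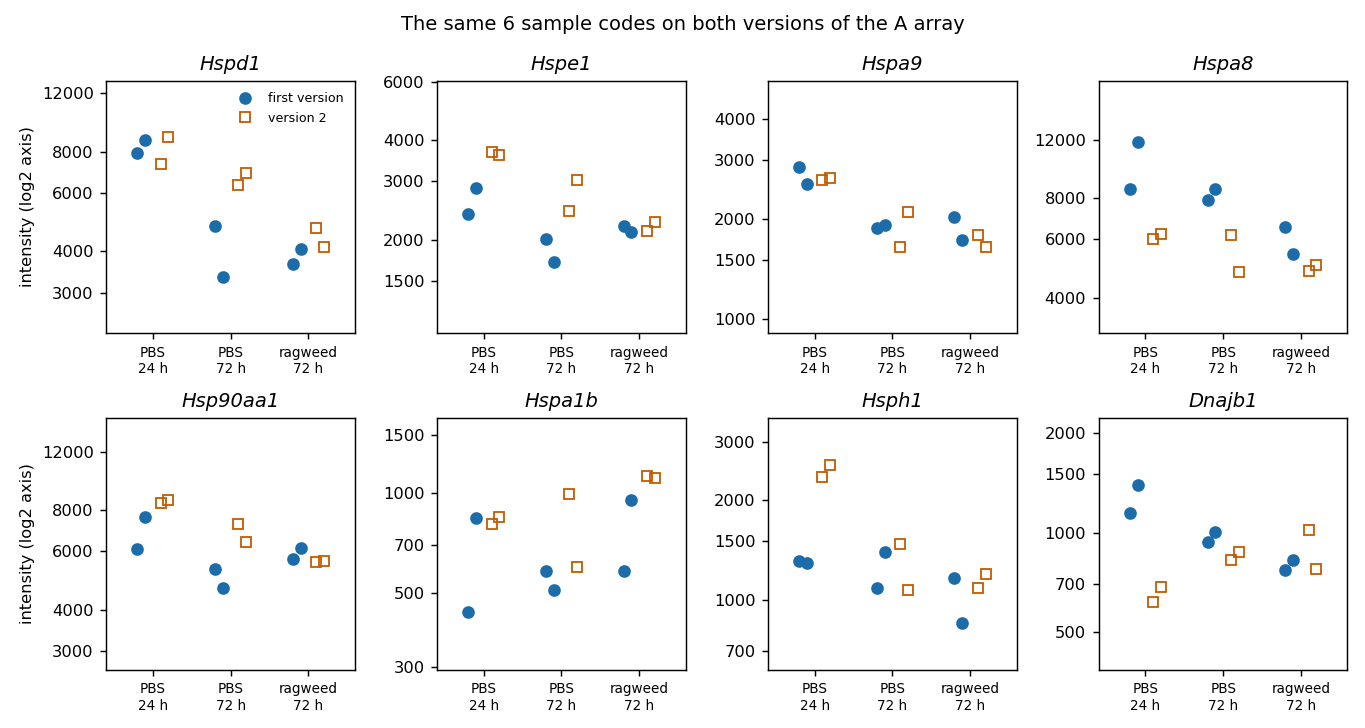
Intensity on a log2 axis of 8 heat shock genes in the 6 samples read on both versions of the A array, with circles for the first version and squares for version 2. Hspd1 in PBS at 72 h lies higher on version 2 (6326 and 6882) than on the first version (4783 and 3355), and Dnajb1 runs in opposite orders.

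The PBS groups also differed in markers of several cell types and tissues. Squamous epithelium markers (7 of 9 tested, none at the floor in both samples of a group) summed to between 50472 and 52200 in PBS at 72 h and to between 15653 and 20797 over the other 6 samples. In PBS at 72 h minus PBS at 24 h, 2 of these 7 genes were below 0, and the median was 1.13. Heart and skeletal muscle markers (12 of 16 tested, at most 1 at the floor in a group) summed to between 36745 and 39374 in PBS at 72 h and between 17203 and 25098 elsewhere, and fat markers (4 of 6 tested) to between 4821 and 4889 against between 1859 and 3189. Lung epithelium markers summed to between 184071 and 184914 in PBS at 24 h and between 234889 and 236755 in PBS at 72 h, with Cyp2f2 (1.68 ± 0.089, adjusted p = 0.000585) and Scgb1a1 (adjusted p = 0.0039) called higher and 4 of the 8 genes below 0. B and plasma cell markers summed to between 8170 and 8818 and between 17243 and 17310, with Jchain (1.99 ± 0.165, adjusted p = 0.0039) and Ighm (1.24 ± 0.116, adjusted p = 0.00611) called higher. Of the 5 genes tested in that list 1 was below 0, and the median was 0.89.

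Red cell markers summed to between 75315 and 77825 in PBS at 24 h and between 13740 and 63109 in PBS at 72 h. The sums of macrophage markers and of immediate early genes (22813 to 24295 and 22489 to 23269) overlapped between the PBS groups. The part of these markers in the lower heat shock gene levels of PBS at 72 h was not tested.

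Other chaperone genes were followed in 6 lists. Of the relatives and co-chaperones of cytosolic HSP70 and HSP90, 37 of 43 genes were tested and none passed in any of the 5 comparisons, with medians of -0.04 at 24 h, -0.03 at 72 h and -0.07 between the PBS groups. At an unadjusted p under 0.05 there were none of the 37 at 24 h, against 8.71% of all probe sets, and 3 at 72 h, against 9.62%. None of 15 tested mitochondrial chaperones and proteases passed, with medians of -0.21, 0 and -0.14, and 2 (1 higher, 1 lower) at an unadjusted p under 0.05 at 24 h, against the same 8.71%. With 0.23% of all probe sets passing at 24 h, no call among 15 genes does not set Hspd1 apart from them.

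The TRiC chaperonin and prefoldin, which fold actin and tubulin, had 11 of 14 genes tested and no call, with medians of -0.13, 0.02 and -0.12. At an unadjusted p under 0.05 at 24 h were 2 (1 higher, 1 lower), against 8.71% of all probe sets. Small heat shock proteins other than Hspb1 (6 of 8 tested) and heat shock transcription factors and regulators (5 of 10 tested) also had no call. In the latter list the metallothioneins Mt1 and Mt2, metal-binding stress genes, differed by 0.57 ± 0.146 (adjusted p = 0.273) and 0.54 ± 0.127 (adjusted p = 0.231) in ragweed against PBS at 24 h. They were the 2 of its 5 tested genes at an unadjusted p under 0.05, against 8.71% of all probe sets. The other 3 were below 0, and the list's median was -0.05.

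The chaperones of the endoplasmic reticulum (12 of 16 tested) were the one list with calls. These were 3 of 12, all between the PBS groups, where 0.277% of all probe sets passed. Hspa5 (BiP, the HSP70 of that compartment) fell by 1.24 ± 0.157 from PBS at 24 h to PBS at 72 h (adjusted p = 0.022), Pdia6 (a disulfide isomerase) fell by 1.19 ± 0.143 (adjusted p = 0.0167) and Manf (a secreted stress-response protein) fell by 1.42 ± 0.16 (adjusted p = 0.012). The list's median was -0.65 with 10 of 12 below 0, and 7 of 12 were lower at an unadjusted p under 0.05, against 4.12%. Between the PBS groups the cytosolic relatives and co-chaperones were below 0 for 27 of 37 genes, and the mitochondrial list for 10 of 15. The counts were 10 of 11 for TRiC and prefoldin, 4 of 5 for regulators and 3 of 6 for small heat shock proteins, against 50.7% of all genes. Hspa5 read 8619 and 11882 in PBS 24 h, 7213 and 6550 in ragweed 24 h, 4561 and 4023 in PBS 72 h, and 5953 and 5259 in ragweed 72 h.

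Hspa5 and Hspd1 thus shared their highest group, but PBS at 72 h was the lowest group of Hspa5 and lay beside both ragweed groups for Hspd1. Ragweed minus PBS at 24 h was -0.56 ± 0.157 for Hspa5 (adjusted p = 0.316), and no gene of the list passed in ragweed against PBS at either time, with 5 of 12 at an unadjusted p under 0.05 at each time, against 8.71% and 9.62% of all probe sets. Of these 5, 2 were higher and 3 lower at 24 h, and 4 higher and 1 lower at 72 h. The count of 3 calls fell to 2 without PBS 24 h 1a, to 1 without any of the 4 ragweed samples, and to 0 without PBS 24 h 1b or either PBS sample of 72 h.

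**Figure D4:**
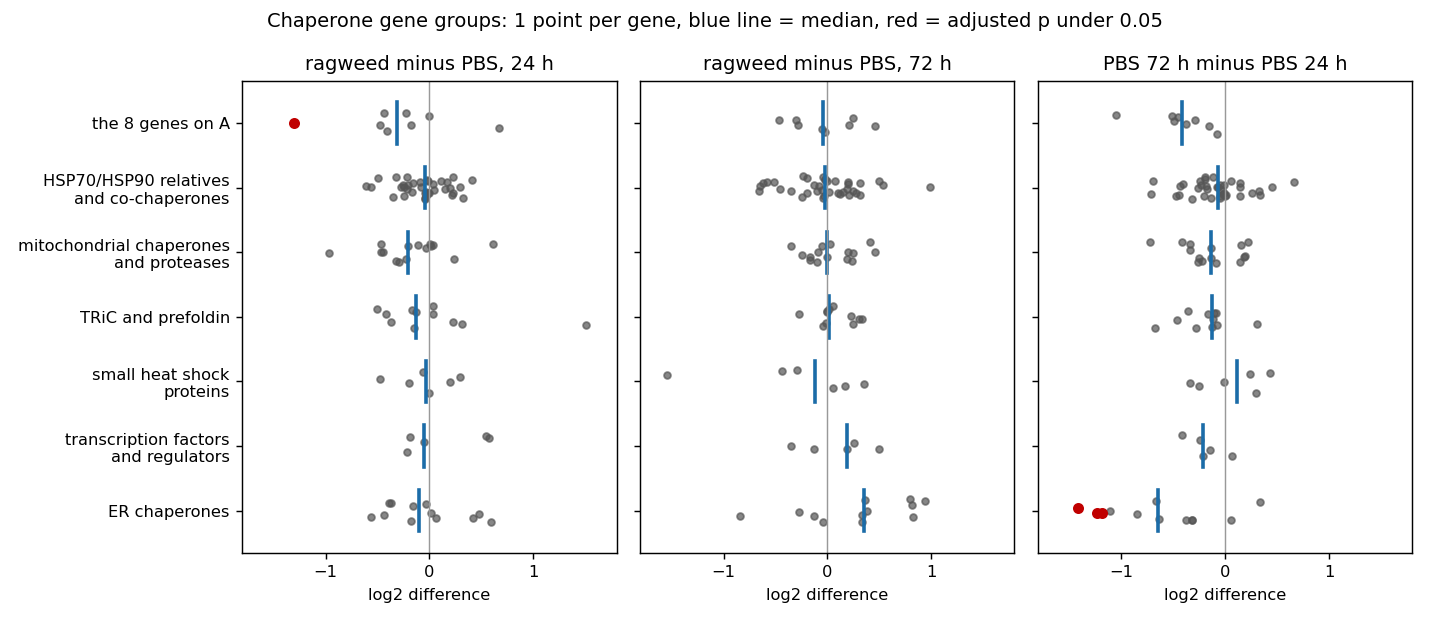
Log2 differences of the 8 heat shock genes of the A array and of 6 lists of other chaperone genes, with 1 point per tested gene, a blue line at the median and red points for an adjusted p under 0.05. Red points are Hspd1 at 24 h (-1.30) and 3 endoplasmic reticulum chaperones between the PBS groups (-1.24, -1.19 and -1.42), and the medians of the other 5 lists lie between -0.22 and 0.19.

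Among 5464 other genes of the A array, the 3 whose log2 values over the 8 samples were most like those of Hspd1 were Rnf103 (r = 0.976), Ebf2 (r = 0.968) and Hars (r = 0.966), a description with no test. Rnf103, a ubiquitin ligase of the endoplasmic reticulum, read 860 and 991 in PBS 24 h and between 567 and 686 in the other 6 samples. Ebf2 and Hars (histidyl-tRNA synthetase) were near the floor, at 418 and 429 and at 472 and 548 in PBS at 24 h, and at or under 371 and 390 elsewhere. Of the members, Dnajb1 (r = 0.827, rank 101), Hspa9 (0.752, rank 199) and Hspe1 (0.713) were most like Hspd1, followed by Hspa8 (0.619) and Hsp90aa1 (0.597). Hsph1 (0.118) and Hspa1b (-0.29) had the lowest values.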

How the data were processed

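The deposited values are linear intensity, 1 per probe set and array. Sources used here do not name the software. One of 47 arrays (ragweed 24 h, without a letter) equalled the 1a array divided by 2.63 at all 12654 probe sets and was left out. The first-version A table was limited to 9977 probe sets also on version 2 A, brought to an 800 mean (2% trimmed at each end), then quantile normalized; version 2 B and C kept the authors' deposited scale. Values under the floor (342.8 on A, 355.9 on B, 245.6 on C) were raised to it, and probe sets above it on at least 2 arrays were tested: 6899, 9196 and 9154. limma 3.58.1 in R 4.3.3 fitted 1 mean per group on log2 intensity (8 samples, 4 residual degrees of freedom, eBayes with a trend), with Benjamini-Hochberg over the 3 tables per comparison; the fit was tested on simulated data. Floored values add no spread, so standard errors there may be too small.

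Gene symbols follow the array annotation, brought up to date through gene IDs, with 1 probe set per gene in counts of genes (A before B before C, then the brightest). Named genes were every member probe set, up to 4 list genes per comparison among those called, and the 3 genes most like each called member. Genes given beside these were chosen after their values were seen. They are Hspa1a, Mt1 and Mt2, and the single marker genes C1qa, Lyz2, Cyp2f2, Scgb1a1, Jchain and Ighm. The members and lists were chosen with earlier results of these data known. Sample numbers did not pair the samples: the 1a minus 1b differences of the groups correlated between -0.079 and 0.044 in 18 comparisons. Alternatives changed the floor, filter, normalization, probe sets, trend, adjustment, controls, array version and samples.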

Additional observations from a re-analysis of the deposited data

How the results depend on the processing

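The 1 member call at 24 h (Hspd1) became 0 with no filter (-1.30, adjusted p = 0.18), with scaling only (-1.27, 0.0527), without a trend (-1.30, 0.128), with the replicate block (-1.30, 0.0573), with PBS of the other time (-0.26, 0.64), with PBS of both times (-0.78, 0.553) and with a fit of the 2 groups alone (-1.30, 0.464). It stayed at 1 with the other floor, the 4-array filter, quantile normalization of all tables, all A probe sets and adjustment within tables. Leaving out 1 sample gave between 0 and 1 calls, with Hspd1 between -1.44 and -1.16 and called in 2 of 8 fits. The F-test count of 1 became 0 with no filter, scaling only, no trend and the replicate block, and lay between 0 and 1 with 1 sample left out. The count of 0 at 72 h became 1 with PBS of the other time. The count of 0 between the PBS groups became 1 (Hspd1, -1.05) with the 4-array filter (adjusted p = 0.0241) and with adjustment within tables (0.0272). The endoplasmic reticulum list went from 3 calls to 1 with no filter and to 0 without a trend. How its calls fell with 1 sample left out is given above. The small heat shock protein and mitochondrial lists each went from 0 to 1 with no filter. The replicate block changed no other count of calls among the members and lists. At 72 h the other array version turned the differences of Hspe1 (0.21 to -0.31) and Hsp90aa1 (0.25 to -0.28), and between the PBS groups that of Dnajb1 (-0.38 to 0.39), none of them called. The cause of these changes was not tested. The 2 samples per group limit the precision, with a median replicate SD of 0.175 on the log2 scale over the member probe sets of the A array.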
